A study of Rattus rattus with 18 samples.

Results

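The core arrays of 3 rats with transient middle cerebral artery occlusion (tMCAO) were compared with those of 3 sham-operated rats, which makes 6 of the 18 arrays in the series, chosen by their titles. In tMCAO a filament is advanced through the internal carotid artery to the origin of the middle cerebral artery, left there for a time and withdrawn again, while sham-operated rats have the surgery without the closure. All animals were Sprague Dawley rats with no genetic change or other treatment named for these groups, and each rat gave 1 core array, so the rat is the replicate. The labels place the core samples in the temporo-parietal cortex and the paper's text places the ischemic core in the striatum, so the region is called core here. The organism field of the labels reads Rattus rattus and the series title Rattus norvegicus, and the paper, which gives an early and a later time of sacrifice after reperfusion, ties neither to the arrays. Each array carried probes for 761 rat miRNAs, each on 4 spots and stained with the dye Cy5. The question was which miRNAs differed in level in the core between occluded and sham-operated rats.

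miRNAs are short RNAs that guide silencing complexes to messenger RNAs, mainly through the seed, the bases from 2 to 8 counted from the 5′ end. miRNAs with the same seed form a family with overlapping targets. A hairpin precursor is cut into a 5p and a 3p strand (arm), and usually one of these is loaded into the complex and kept while the other is degraded. In brain tissue some miRNAs are used as markers of neurons, oligodendrocytes or blood cells, and ischemia brings loss of neurons and entry of leukocytes. In tissue as a whole, fewer cells of a type and less miRNA per cell cannot be told apart.

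The target sequences that the results turn on are printed 5′ to 3′ as the spot files give them, with the seed in capitals. No genome was used here, so their positions in the rat genome are not given. The first set holds families whose members share 1 seed and differ by 1 or a few bases outside it, which matters because their changes were unequal and because such probes can share signal.
miR-29a-3p: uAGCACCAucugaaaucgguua
miR-29b-3p: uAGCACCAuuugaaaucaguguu
miR-29c-3p: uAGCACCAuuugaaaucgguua
miR-181a-5p: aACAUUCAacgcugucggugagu
miR-181b-5p: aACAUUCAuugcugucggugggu
miR-181c-5p: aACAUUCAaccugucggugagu
miR-181d-5p: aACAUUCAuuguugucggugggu
miR-30a-5p: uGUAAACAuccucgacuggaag
miR-30d-5p: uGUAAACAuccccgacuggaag
miR-30e-5p: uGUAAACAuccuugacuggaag
let-7a-5p: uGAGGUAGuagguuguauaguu
let-7b-5p: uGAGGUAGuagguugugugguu
let-7c-5p: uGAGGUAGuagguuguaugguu
let-7f-5p: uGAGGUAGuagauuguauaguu
miR-664-1-5p: cUGGCUGGggaaaaagauugg
miR-664-2-5p: cUGGCUGGggaaaaugauugg

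The second set holds the other miRNAs that passed the test, first those that rose and then those that fell.
miR-149-3p: gGGACGGGggcggugcug
miR-762: gCGGGGCUagggccggga
miR-6215: uUUAGGGUugcagagccagg
miR-3473: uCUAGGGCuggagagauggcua
miR-150-5p: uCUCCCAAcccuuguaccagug
miR-155-5p: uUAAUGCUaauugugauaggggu
miR-191a-5p: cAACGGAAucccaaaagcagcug
miR-568: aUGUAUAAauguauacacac
miR-132-5p: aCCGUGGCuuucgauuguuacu
miR-320-5p: gCCUUCUCuucccgguucuucc
miR-191b: gAACGAAAuccaagugcagcu
miR-93-3p: aCUGCUGAgcuagcacuucccga
miR-210-5p: aGCCACUGcccacagcacacug
miR-200b-5p: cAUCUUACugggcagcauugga

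The arrays differed in quality, and 1 sham array stood apart. Detection was judged on each array from its empty spots: the median spot of a miRNA had to exceed their median plus 3 scaled median absolute deviations. By this measure 336, 480 and 509 miRNAs were detected on the sham arrays of rats 1, 2 and 3 and 447, 348 and 233 on the tMCAO arrays, a difference in means of -99 that did not pass a two-sided exact permutation test (p = 0.3, where 3 against 3 allow no p under 0.1). The 4 spots of a probe, where brighter than 500 units, had a median SD of 0.10 to 0.12 on the sham arrays and of 0.17 to 0.33 on the tMCAO arrays, on the log2 scale. Across the 532 miRNAs tested, sham arrays of rats 1 and 3 correlated at r = 0.985, whereas sham rat 2 reached 0.899 and 0.890 with them. On the array of sham rat 2 the control spots named PUC2MM gave 38.5% and 35.9% of the signal of their partners named PUC2PM, against 0.125% to 0.469% on the other 5 core arrays compared. The files do not say what these letters stand for. Many results that rest on this array are therefore also given without it.

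Of the 11 control probes whose names end in 3P, 9 had lower spot intensities on every tMCAO array than on every sham array, and 6 still did so after normalization, with log2 differences from -3.13 to -1.09. Over all 11 the median normalized difference was -1.32 and the range -3.13 to -0.16. How the RNAs for these probes were added is not described, and their part in the results was not tested. The liver miRNA miR-122-5p, which brain tissue should lack, was not detected on any of the 6 arrays. Its other arm, miR-122-3p, was detected on the 3 sham arrays, at 7.83, 10.10 and 7.52, and on 1 tMCAO array, with values of 7.05, 7.31 and 6.86. The neuronal miR-124-3p was near the top of the range on all 6 arrays.

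**Figure D1:**
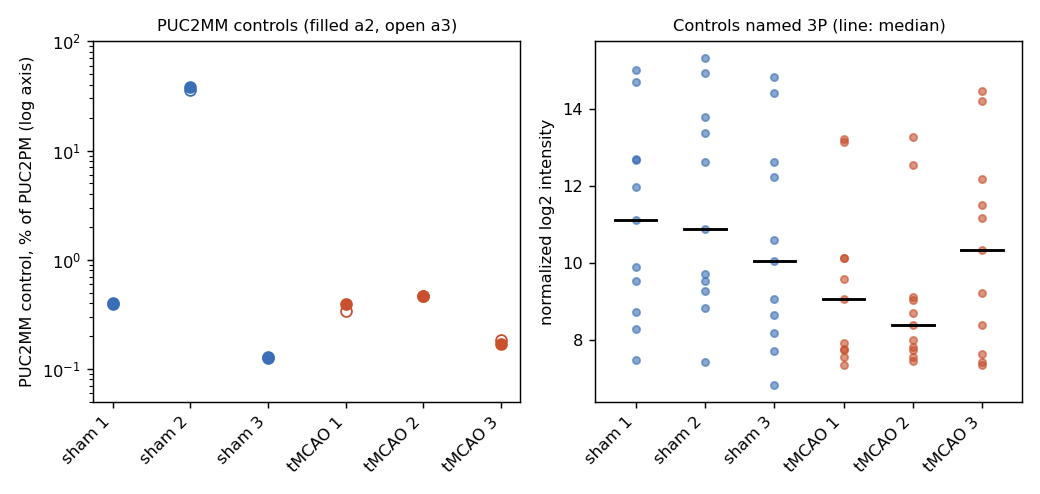
Control probes on the 6 core arrays. Left, signal of the a2-PUC2MM-20B and a3-PUC2MM-20B controls as a percent of their PUC2PM partners, on a log axis. It lies at 38.5% and 35.9% for sham rat 2 and at 0.125% to 0.469% elsewhere. Right, normalized log2 intensity of the 11 controls named 3P, 1 point per control, with the median of each array as a line.

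Of the 532 miRNAs tested (detected on at least 3 of the 18 arrays), 18 differed between tMCAO and sham in core at an adjusted p under 0.05 by limma with Benjamini-Hochberg adjustment, which is 3.38% of those tested. Of these, 9 rose (1.69%) and 9 fell (1.69%), and in all 18 the tMCAO values lay entirely above or below the sham values. Groups that do not overlap were common on these arrays, with 218 of 532 miRNAs (41.0%), 89 higher (16.7%) and 129 lower (24.2%). Before adjustment, 116 miRNAs (21.8%) had a p under 0.05. The median log2 fold change over all miRNAs tested was -0.05. The split between rises and falls depended on the processing. The share higher was 37.5% of 16 after quantile normalization, 50% of 12 after median scaling and 71.4% of 7 after plain background subtraction. Without tMCAO rat 3 it was 84.6% of 13. Of the 9 that rose 7 were detected on all 6 arrays, and of the 9 that fell 3 were. A fall by itself lowers detection on the tMCAO arrays. The detection limits also differed, at 161, 58 and 49 units on the sham arrays and 77, 113 and 240 on the tMCAO arrays. When the array of sham rat 2 was left out, 4 miRNAs remained past the threshold (miR-149-3p, miR-6215, miR-664-2-5p and miR-762, all higher). The other 14 had adjusted p values from 0.0565 to 0.164. Their direction could not reverse, since the groups did not overlap. Each of the other rats also carried part of the count, which in limma was 0 without sham rat 1 and 0 without sham rat 3 (97 and 101 at an unadjusted p under 0.05), 3 without tMCAO rat 1, 1 without tMCAO rat 2 and 13 without tMCAO rat 3.

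**Figure D2:**
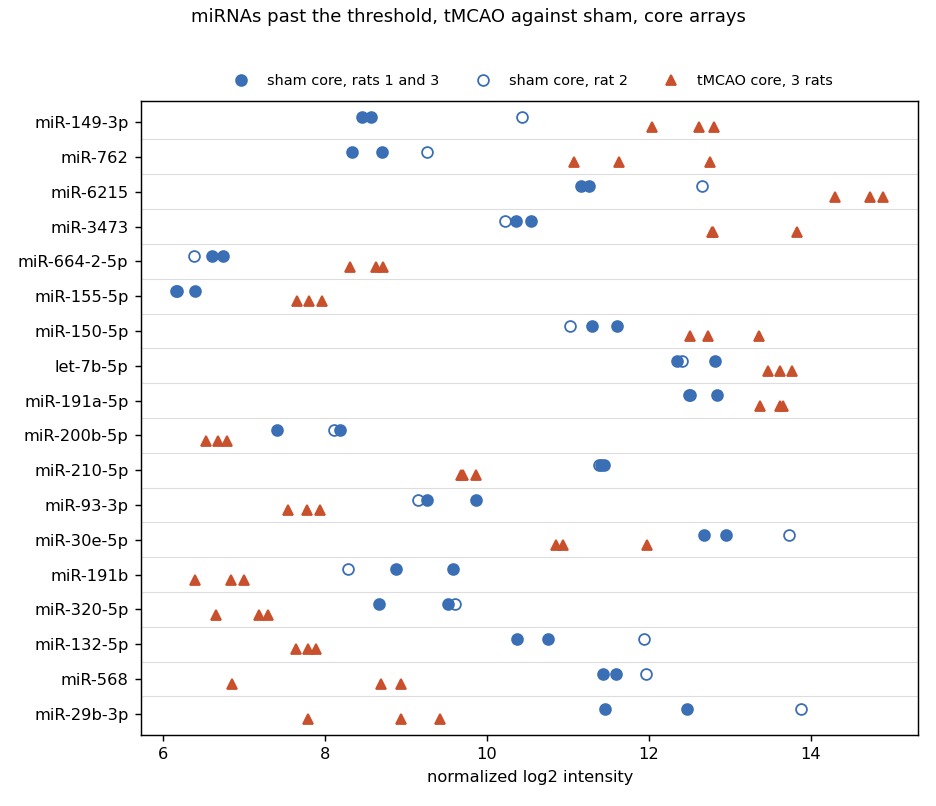
Normalized log2 intensity (horizontal axis) of the 18 miRNAs past the threshold on each core array, ordered by log2 fold change. Circles are sham rats, with rat 2 open, and triangles are tMCAO rats. No miRNA has overlapping groups, and the open circle is the highest sham value for 8 of the 18 (miR-149-3p, miR-762, miR-6215, miR-30e-5p, miR-320-5p, miR-132-5p, miR-568 and miR-29b-3p).

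The largest rises were those of 4 miRNAs that were detected on all 6 arrays. miR-149-3p, the GC-rich strand of the miR-149 hairpin, had log2 intensities of 8.46, 10.44 and 8.57 in sham rats 1 to 3 and of 12.03, 12.81 and 12.62 in the tMCAO rats. Every tMCAO value lay above every sham value, and sham rat 2 was the highest of the sham rats. Its log2 fold change was 3.33 ± 0.60 (SE, adjusted p = 0.0293), and 3.97 without sham rat 2 (adjusted p = 0.0157).
miR-762 lay at 8.34, 9.26 and 8.71 in sham rats and at 11.08, 11.63 and 12.76 after tMCAO. This was a rise of 3.05 ± 0.53 (SE, adjusted p = 0.0293), with a wider spread after tMCAO than in sham rats. miR-6215 went from 11.69 ± 0.84 to 14.64 ± 0.31 (SD, n = 3), with sham rat 2 at 12.66 and the other sham rats at 11.16 and 11.26. The log2 fold change was 2.94 ± 0.55 (SE, adjusted p = 0.0293). miR-3473 was tight in sham rats, at 10.36, 10.22 and 10.55, and reached 12.79, 13.83 and 12.78 after tMCAO. It rose by 2.76 ± 0.61 (SE, adjusted p = 0.0422), but without sham rat 2 the adjusted p was 0.11. The next in size, miR-1224, had values of 9.17, 11.05 and 9.26 in sham rats and 11.99, 12.77 and 12.45 after tMCAO. The groups did not overlap, yet the difference of 2.58 missed the threshold (adjusted p = 0.0922).

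miR-664-2-5p had the smallest p of all miRNAs tested. It was detected on 1 of 3 sham arrays and on all 3 tMCAO arrays, with log2 intensities of 6.60, 6.39 and 6.74 against 8.31, 8.72 and 8.63. It rose by 1.97 ± 0.28 (SE, adjusted p = 0.0188), and by 1.88 without sham rat 2 (adjusted p = 0.0421). Near background its size depended on the processing, from 1.76 to 6.42 over the alternatives. Its near twin miR-664-1-5p differs by A15U (positions from the 5′ end, base of miR-664-1-5p first) and lay at 8.81, 7.85 and 10.27 in sham rats and at 8.14, 7.74 and 7.74 after tMCAO. That is a difference in the other direction (-1.11, adjusted p = 0.441; -1.67 without sham rat 2 and -0.46 without sham rat 3), with overlapping groups. The gap of 3.08 between the changes of the twins had an adjusted p of 0.0829.

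Among miRNAs of leukocytes and microglia, the cells of the inflammatory response, 7 of 8 on the list were tested, 2 rose and none fell, where 3.38% of all miRNAs tested were called and 1.69% rose. The median log2 fold change of the 7 was 1.35, against -0.05 over all miRNAs, and 1.12 without sham rat 2. miR-155-5p, which is induced in activated macrophages and microglia, was not detected on any sham array and on 2 of 3 tMCAO arrays. Its values of 6.39, 6.18 and 6.17 in sham rats therefore give only a bound. With 7.66, 7.97 and 7.80 after tMCAO the bound was 2.08-fold higher (adjusted p = 0.0318). It is not a strict bound, since the 7.80 of tMCAO rat 3 lay under the lowest detected signal of that array, 8.12. miR-150-5p, abundant in mature lymphocytes, lay at 11.30, 11.03 and 11.61 in sham rats and at 12.72, 13.36 and 12.51 after tMCAO. The lowest tMCAO value was above the highest sham value, and the rise was 1.55 ± 0.31 (SE, adjusted p = 0.0318). The adjusted p was 0.0983 for miR-155-5p and 0.0966 for miR-150-5p once sham rat 2 was left out.

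The other members of that list did not pass. miR-146b-5p, detected on all 6 arrays, lay at 10.04, 10.36 and 10.37 in sham rats and at 10.25, 10.45 and 10.45 after tMCAO. Its groups overlapped (adjusted p = 0.848). miR-146a-5p, a feedback inhibitor of inflammatory signalling, was at 9.07, 9.26 and 9.11 in sham rats and at 10.11, 9.95 and 10.27 after tMCAO, with a difference of 0.96 and an adjusted p of 0.152. miR-21-5p, which is raised in many kinds of tissue injury, was 1.38 higher with overlapping groups (adjusted p = 0.164). miR-223-3p, the myeloid miRNA, was detected on 1 sham and 2 tMCAO arrays, at 6.87, 7.51 and 6.42 against 9.23, 8.71 and 6.92. The third tMCAO rat was within the sham range, and the difference of 1.35 had an adjusted p of 0.308 (0.88 without tMCAO rat 1 and 2.03 without tMCAO rat 3). The pan-leukocyte miR-142 was near background, with miR-142-3p detected on 1 sham array and no tMCAO array and miR-142-5p on 2 sham arrays and no tMCAO array. Both arms had every tMCAO value below every sham value, opposite to the median of the list. The difference of miR-142-5p was -0.46 (adjusted p = 0.401; -0.22 without sham rat 2), and miR-142-3p was not tested. Of the red blood cell list, miR-144-3p and miR-144-5p were not detected on any of the 6 arrays. miR-451-5p, the most specific red blood cell miRNA, did not separate the groups (-0.01, adjusted p = 0.986; 0.23 without sham rat 2). miR-486 was at 7.08, 6.71 and 7.44 in sham rats and at 8.95, 9.42 and 8.60 after tMCAO, a difference of 1.91 that missed the threshold (adjusted p = 0.0922).

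The let-7 family, which restrains growth and is abundant in mature neurons, was split. All 9 members were detected on all 6 arrays, 1 rose (1.69% of all miRNAs tested did), and the median log2 fold change was 0.66 (0.67 without sham rat 2). let-7b-5p lay at 12.35, 12.41 and 12.82 in sham rats and at 13.62, 13.77 and 13.46 after tMCAO. It rose by 1.09 ± 0.23 (SE, adjusted p = 0.0354), and was 1.03 higher without sham rat 2 (adjusted p = 0.0983). let-7c-5p, which differs from it by G17A, was 0.99 higher and just missed the threshold (adjusted p = 0.0543). The next 2 by p were let-7a-5p, 1.21 higher with sham rat 2 lowest at 11.24 (0.67 higher without that rat), and let-7d-5p, 0.66 higher. Neither passed. The groups did not overlap in 4 of the 9 members, near the 41.0% of all miRNAs tested. let-7f-5p (G12A relative to let-7a-5p) had a log2 fold change of -0.01, let-7i-5p of -0.05 and let-7g-5p of -0.10, values that turned positive without sham rat 2 (0.17, 0.16 and 0.063) and under median scaling. miR-98-5p had -0.69 (-0.018 without sham rat 2 and -1.24 without sham rat 1), and the groups overlapped for these 4. With sham rat 2 left out, 8 of 9 members were higher, but none passed.

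miR-191a-5p had the smallest change of all 18, from 12.51, 12.50 and 12.84 to 13.62, 13.65 and 13.37, a rise of 0.93 ± 0.21 (SE, adjusted p = 0.0427). miR-191b, listed under a similar name but with another seed, went the other way. It was detected on all 3 sham arrays, at 8.88, 8.29 and 9.58, and on no tMCAO array, at 6.84, 7.01 and 6.40. It was at least 3.02-fold lower after tMCAO (adjusted p = 0.0427).

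In the miR-29 family, known for restraining collagen and other matrix genes, all 3 members were lower and 1 fell past the threshold, where 1.69% of all miRNAs tested fell. miR-29b-3p lay at 11.46, 13.88 and 12.47 in sham rats and at 8.94, 7.79 and 9.43 after tMCAO. This was the largest change of the 18, -3.89 ± 0.90 (SE, adjusted p = 0.0427), and it also had the widest spread in sham rats, with rat 2 the highest. It was -3.25 without sham rat 2 (adjusted p = 0.164). miR-29c-3p lay at 13.66, 14.85 and 13.16 in sham rats and at 12.00, 9.33 and 12.46 after tMCAO. The difference of -2.63 missed the threshold (adjusted p = 0.104), and was -1.66 without tMCAO rat 2, whose value was the lowest. miR-29a-3p differs from miR-29c-3p only at base 10, which is C in miR-29a-3p and U in miR-29c-3p. Its values of 14.66, 15.02 and 14.16 and of 14.37, 13.82 and 14.32 overlapped (-0.44, adjusted p = 0.27; -0.67 to -0.24 when 1 rat was left out). The family median was -2.63, and -2.15 without sham rat 2.

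In the miR-30 family, 1 of 5 members fell, where 1.69% of all miRNAs tested did, and 4 of 5 were lower, as were 284 of the 532. The family median was -0.73, and -0.36 without sham rat 2. miR-30e-5p went from 12.95, 13.72 and 12.68 to 10.93, 10.85 and 11.97, a log2 fold change of -1.87 ± 0.39 (SE, adjusted p = 0.0353). Its difference without sham rat 2 was -1.56 (adjusted p = 0.109). miR-30a-5p, a base apart (base 13 is C in miR-30a-5p and U in miR-30e-5p), had a difference of -1.47 with groups that did not overlap (adjusted p = 0.11). miR-30b-5p and miR-30c-5p had differences of -0.73 and -0.46 with overlapping groups (-0.36 and -0.35 without sham rat 2, -0.44 and -0.29 without tMCAO rat 2). miR-30d-5p (U12C relative to miR-30a-5p) had a change of 0.00 (0.15 without sham rat 2), with values of 13.18, 13.42 and 12.77 against 13.59, 13.05 and 12.75.

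The miR-181 family, which is enriched in brain and lymphocytes, had no member past the threshold. miR-181c-5p lay at 11.39, 12.52 and 11.46 in sham rats and at 8.28, 8.81 and 9.94 after tMCAO, a difference of -2.78 (adjusted p = 0.142). miR-181b-5p was at 10.77, 12.19 and 10.97 against 8.75, 8.91 and 9.75 (-2.17, adjusted p = 0.145; -1.73 without sham rat 2). miR-181d-5p differed by -2.26 (adjusted p = 0.17), and by -1.41 without sham rat 2, whose value of 12.27 lay far above 9.62 and 9.81. The groups did not overlap in 3 of the 4 members, against 41.0% of all miRNAs tested, and in each of these 3 sham rat 2 was the highest sham rat. The values of miR-181a-5p overlapped, at 13.38, 13.36 and 13.32 against 13.37, 13.78 and 13.58 (0.22, adjusted p = 0.479; 0.12 without tMCAO rat 2).

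**Figure D3:**
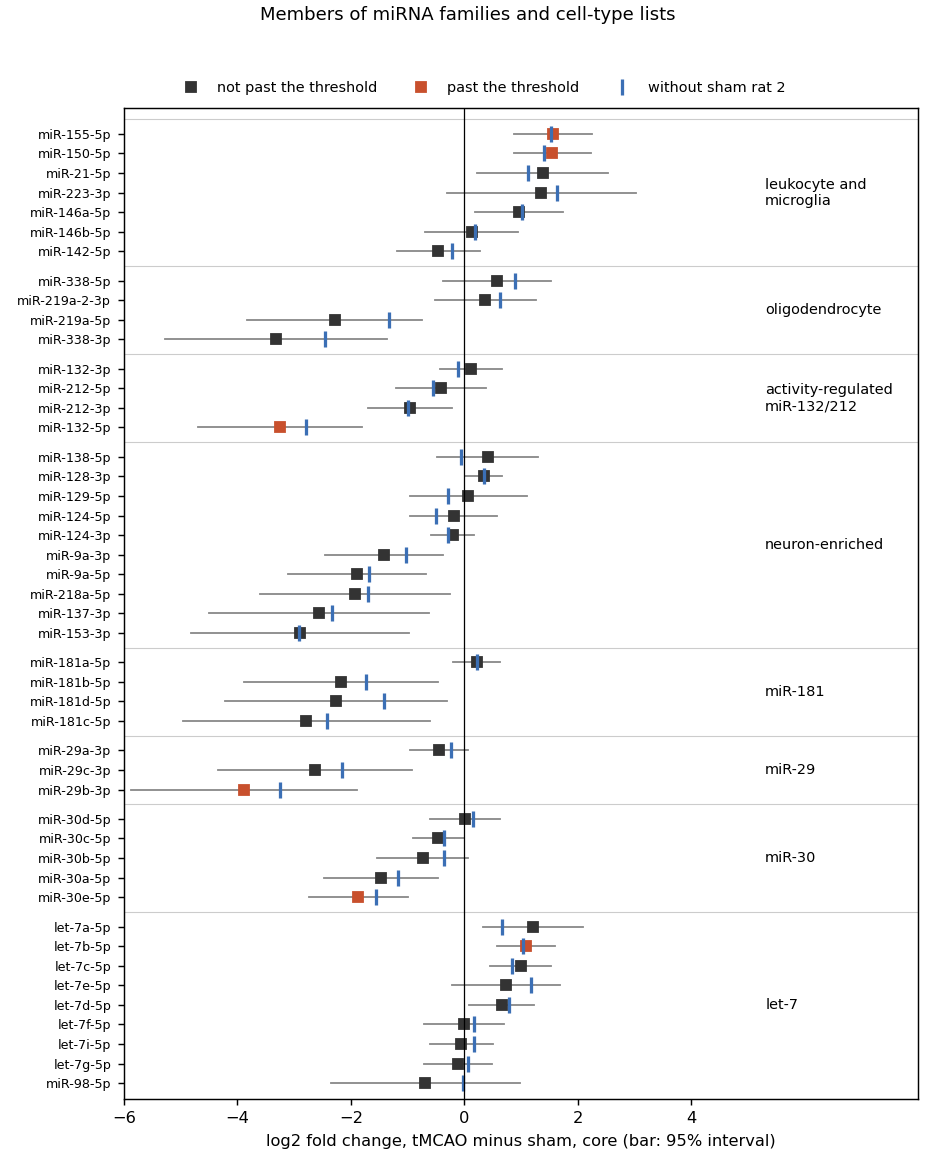
Log2 fold change of tMCAO against sham in core for members of 4 seed families and 4 cell-type or activity lists (squares, with 95% intervals from limma; orange past the threshold). Blue ticks give the value without sham rat 2. The 3 miR-29 members and 3 of 4 miR-181 members lie below 0, and 6 of 7 leukocyte and microglia members lie above 0.

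The neuron-enriched list had no member past the threshold, with 7 of 10 lower and a median of -0.81 (9 of 10 and -0.77 without sham rat 2). Its members ranged from -2.89 to 0.41 on the log2 scale, and the highest, miR-138-5p, was -0.066 without sham rat 2. miR-153-3p, which is enriched in neurons and targets synaptic proteins, lay at 13.24, 12.58 and 12.03 in sham rats and at 10.73, 8.03 and 10.40 after tMCAO (-2.89, adjusted p = 0.104). miR-137-3p differed by -2.55, miR-218a-5p by -1.93 and miR-9a-5p by -1.89, and tMCAO rat 2 was the lowest in all of these. Without that rat the differences were -2.05 for miR-153-3p, -1.51 for miR-137-3p, -1.43 for miR-218a-5p and -1.20 for miR-9a-5p. miR-9a-3p, the other arm of the neuronal miR-9, was at 13.59, 14.74 and 13.54 in sham rats and at 12.94, 11.54 and 13.14 after tMCAO. Its difference of -1.42 (adjusted p = 0.135) was -1.03 without sham rat 2 and -0.92 without tMCAO rat 2. The groups did not overlap in 6 of the 10, against 41.0% of all miRNAs tested. Of these, 5 were lower (miR-153-3p, miR-137-3p, miR-218a-5p, miR-9a-5p and miR-9a-3p) and miR-128-3p was higher. miR-124-3p, the classical miRNA of neuronal identity, was at 14.35, 13.95 and 14.09 in sham rats and at 13.88, 14.03 and 13.86 after tMCAO (-0.21, adjusted p = 0.469), with overlapping groups, a difference of -0.096 without sham rat 1 and one of 0.11 under median scaling. miR-128-3p, at 14.50, 14.47 and 14.47 against 14.93, 14.95 and 14.59, was 0.34 higher (adjusted p = 0.206), and -0.22 after plain background subtraction. The oligodendrocyte list, 4 of 5 tested, had 2 members lower and 2 higher. miR-338-3p, a driver of oligodendrocyte differentiation, was at 10.70, 13.33 and 10.85 in sham rats and at 8.29, 7.50 and 9.15 after tMCAO (-3.32, adjusted p = 0.0903; -2.46 without sham rat 2). miR-219a-5p was detected on 3 sham arrays and no tMCAO array, and its difference did not pass (adjusted p = 0.106). The bound of at least 3.65-fold lower rested on sham rat 2, and without that rat it was 1.87-fold. Of the sham rats, rat 2 had the highest value for both. miR-219a-2-3p was 0.37 higher (0.20 to 0.63 when 1 rat was left out).

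miR-132 and miR-212 share a precursor transcript that is induced by neuronal activity, and 1 of their 4 arms fell, where 1.69% of all miRNAs tested did. miR-132-5p lay at 10.76, 11.94 and 10.37 in sham rats and at 7.89, 7.64 and 7.80 after tMCAO. It fell by 3.25 ± 0.65 on the log2 scale (SE, adjusted p = 0.0318), and was detected on 2 of 3 tMCAO arrays. Without sham rat 2, the highest of the sham rats, its log2 fold change was -2.79 (adjusted p = 0.0983). miR-132-3p, the main arm, did not separate the groups (0.12, adjusted p = 0.772), and its difference was -0.11 without sham rat 2. miR-212-3p differed by -0.96 (adjusted p = 0.142) and miR-212-5p by -0.41 (adjusted p = 0.481; -0.22 without sham rat 1). The groups did not overlap in 3 of the 4 arms, against 41.0% of all miRNAs tested.

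miR-210 is the miRNA most firmly tied to hypoxia, through induction by hypoxia-inducible factor, and the mature arm miR-210-3p is the one measured in most studies of ischemia. miR-210-3p overlapped between the groups, at 8.16, 6.82 and 8.17 against 7.78, 9.09 and 8.15 (0.62, adjusted p = 0.55; 0.17 without sham rat 2 and 0.25 without tMCAO rat 2). miR-210-5p fell, from 11.45, 11.39 and 11.41 to 9.68, 9.87 and 9.71. With -1.66 ± 0.34 (SE, adjusted p = 0.0318) it had the smallest spread in sham rats of the miRNAs that fell, and sham rat 2 lay with the others. Without that rat it was -1.68 (adjusted p = 0.0966).

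The other miRNAs that fell belong to no list used here. miR-568 lay at 11.59, 11.97 and 11.44 in sham rats and at 8.69, 6.85 and 8.94 after tMCAO. It fell by 3.50 ± 0.56 on the log2 scale (SE, adjusted p = 0.0222), and without sham rat 2 its adjusted p was 0.0565. miR-320-5p was detected on all 3 sham arrays and on 1 tMCAO array, at 8.67, 9.61 and 9.52 against 7.29, 7.18 and 6.66. It fell by 2.22 ± 0.42 (SE, adjusted p = 0.0293), with values from -4.29 to -2.03 over the alternatives. Without sham rat 2 its log2 fold change was -2.05 (adjusted p = 0.0963). miR-93-3p went from 9.26, 9.15 and 9.87 to 7.54, 7.94 and 7.78, a log2 fold change of -1.67 ± 0.39 (SE, adjusted p = 0.0427). miR-200b-5p, of a family known for keeping epithelial identity, was detected on all 3 sham arrays, at 8.18, 8.11 and 7.41, and on no tMCAO array. It was at least 1.59-fold lower (adjusted p = 0.0427).

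Several of these miRNAs changed without their partner arm. Of 156 hairpins with both arms tested, the arms had the same sign of change in 91 and opposite signs in 65, and in the 32 with both arms detected on all 6 arrays the sign was shared in 22. The difference between the arms of 1 hairpin, taken within each array and fitted with limma, differed between tMCAO and sham in 12 of 156 (7.69%) at an adjusted p under 0.05. At an unadjusted p under 0.05 there were 45 (28.8%). In miR-149 the 3p arm rose while the 5p arm was at 10.32, 10.04 and 10.18 against 10.17, 10.21 and 9.95. The 5p change minus the 3p change was -3.40 ± 0.72 (SE, adjusted p = 0.0264). In miR-338 it was 3.90 ± 0.74 (SE, adjusted p = 0.0264), with the 5p arm 0.58 higher and the 3p arm 3.32 lower. Neither arm of miR-338 passed by itself. The 5p value was 0.38 without tMCAO rat 2 and 0.89 without sham rat 2. Both arms of these 2 hairpins were detected on all 6 arrays.

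The arm difference also passed where 1 arm was missed on some arrays, for miR-132 (-3.37), miR-320 (-3.42, with miR-320-3p at 10.39, 9.75 and 10.13 against 11.07, 11.73 and 11.05), miR-210 (-2.28) and miR-93 (2.18). For miR-150 (1.42), miR-200b (-1.52) and miR-15b (1.47) the 3p arm was detected on few of the 6 arrays, on 1 for miR-150-3p and on 2 for each of miR-200b-3p and miR-15b-3p, so that its own change is poorly measured. miR-200b-5p was detected on no tMCAO array either. The remaining hairpins past the threshold were miR-494 (-2.31), miR-582 (-1.97) and miR-3594 (-2.81). These values are poorly measured too, since miR-494-5p and miR-3594-5p were detected on no tMCAO array, miR-3594-3p on 3 of the 6 arrays and miR-582-3p on 4. Without sham rat 2 only the arm differences of miR-149 (-4.11, adjusted p = 0.018) and miR-93 (2.21, adjusted p = 0.0408) passed.

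**Figure D4:**
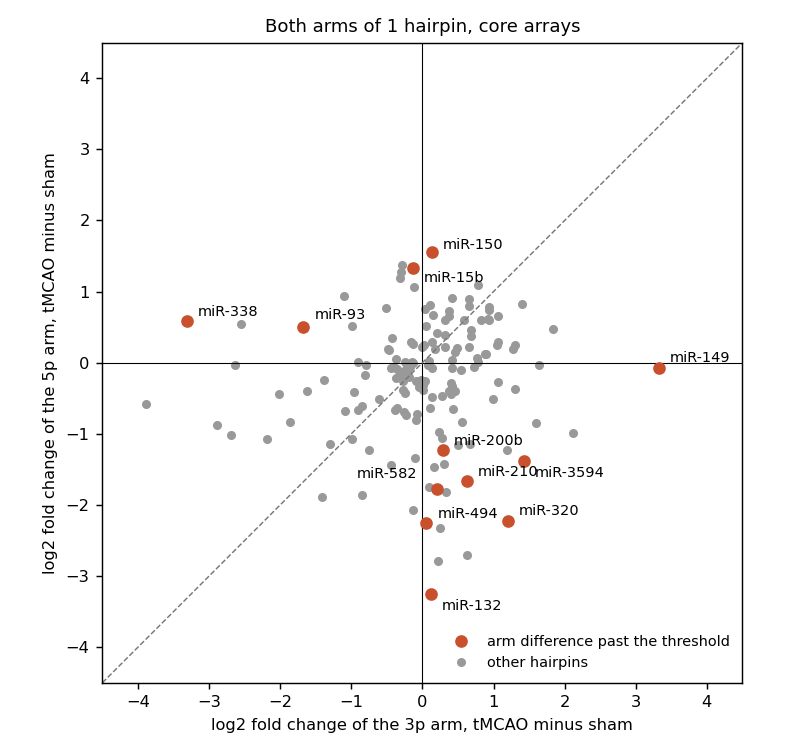
Log2 fold change (tMCAO minus sham, core) of the 5p arm against that of the 3p arm for 156 hairpins. The dashed line marks equal change. The 12 labelled hairpins are those whose arm difference passed the threshold. miR-149 and miR-338 lie near an axis, with 1 arm far from 0 and the other close to 0 or slightly higher. By itself miR-149-3p passed the threshold and miR-338-3p did not.

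Probes whose targets are 1 base apart were compared within each array. Of 23 such pairs with both members tested, 17 had the same sign, 6 differed by at least 1 on the log2 scale and none passed the threshold for the difference (0%), while 6 had an unadjusted p under 0.05. The pairs with a difference over 2 were miR-664-1-5p and miR-664-2-5p, miR-181a-5p and miR-181c-5p (3.00 ± 1.18, SE, adjusted p = 0.138) and miR-29a-3p and miR-29c-3p (2.19 ± 0.71, SE, adjusted p = 0.0914). miR-23a-3p and miR-23b-3p, apart by U19A, were alike at 0.77 and 0.67, as were miR-103-3p and miR-107-3p at 0.49 and 0.45 (0.13 and 0.088 without sham rat 2). Both are pairs where shared signal between probes cannot be told apart from shared change.

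Further families and lists gave no called member. Of the 6 tested members with the miR-15/16 seed 4 were lower, with a median of -0.80. miR-15a-5p was at 10.60, 12.48 and 10.14 in sham rats and at 8.66, 7.41 and 9.06 after tMCAO, without overlap (-2.70, adjusted p = 0.104; -2.00 without sham rat 2). miR-322-5p was at -1.75 (-1.24 without sham rat 2), while miR-15b-5p was 1.34 higher, at 8.74, 8.57 and 9.51 against 9.84, 10.54 and 10.46. In miR-23/27/24, miR-23a-3p and miR-23b-3p were higher with groups that did not overlap, while miR-27b-3p was at -0.91 (adjusted p = 0.152). Of 9 tested members of the miR-17-92 cluster and its paralogs, 4 were higher and 5 lower, with a median of -0.01 (5, 4 and 0.03 without sham rat 2). The seed shared by miR-25-3p, miR-92a-3p and miR-92b-3p was the one in which all 3 members were higher, from 0.78 to 1.06. Single arrays moved these values, with miR-92b-3p at 0.35 without sham rat 2 and miR-25-3p, miR-92a-3p and miR-92b-3p at 0.70, 0.57 and 0.48 without tMCAO rat 2. Among miR-34a-5p, miR-34b-5p, miR-34c-5p and miR-449a-5p, which share a seed and include p53 targets, all 4 were lower, with a median of -0.54, but only 1 was detected on all 6 arrays. Of the endothelial miR-126a-3p the difference was -0.99 (adjusted p = 0.142), and smooth muscle miR-143-3p and miR-145-5p were each 0.41 higher with overlapping groups (0.19 and 0.18 without sham rat 2).

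The imprinted Dlk1-Dio3 locus, which holds the largest miRNA cluster of the brain, had 72 tested members, 31 higher and 41 lower, with a median of -0.11 and no call. Its members with the smallest p were miR-329-3p, at 10.84, 11.17 and 11.08 against 12.50, 12.77 and 11.72 (1.30, adjusted p = 0.0922), miR-434-3p (0.99), miR-411-5p (-1.23) and miR-376a-3p (-1.87). Of the 15 miRNAs in the study's heat map, which were chosen on these samples and are not independent evidence of a direction, all 15 had groups that did not overlap (41.0% of all tested) and 5 passed the threshold (3.38% of all tested), none of them without sham rat 2.

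The GC content of the target moved with the change. In the 43 tested miRNAs with at most 35% GC the median log2 fold change was -0.69 and 3 were higher, and in the 128 between 35% and 45% it was -0.32. It was 0.07 in the 219 between 45% and 55%, 0.18 in the 95 between 55% and 65% and 0.08 in the 47 above. Without sham rat 2 the medians of the 5 classes were -0.48, -0.21, 0.09, 0.07 and 0.23 from the lowest to the highest GC, so that the highest median moved from the fourth class to the fifth, and 7 of 43 in the lowest class were higher. miR-149-3p and miR-762 have 83.3% GC, while miR-568 has 25% and miR-29b-3p 34.8%. With the GC trend removed from each array 17 miRNAs passed, all of them among the 18, and the part of GC content in single results was not tested further.

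**Figure D5:**
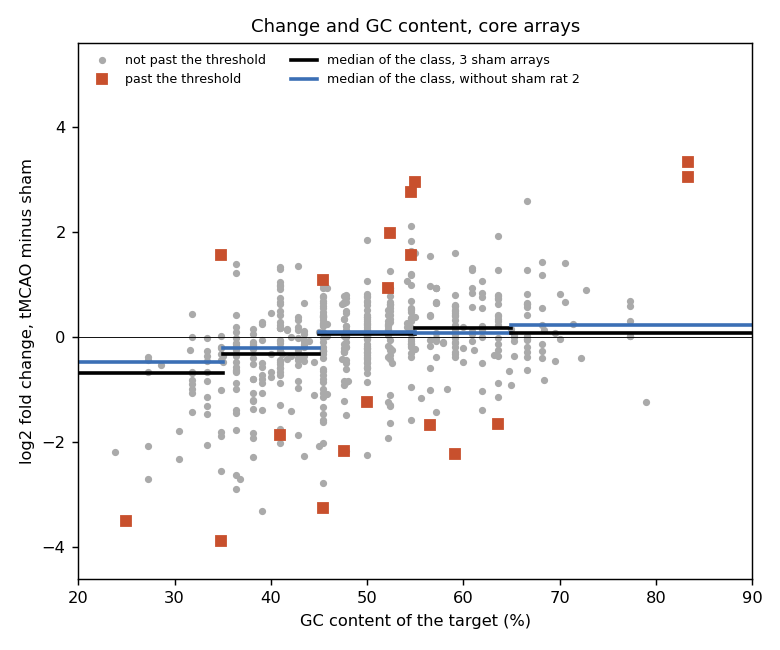
Log2 fold change (tMCAO minus sham, core) against GC content of the target for the 532 miRNAs tested, with the 18 past the threshold as squares. Lines give the median of each of 5 GC classes with 3 sham arrays (black, from -0.69 in the lowest class to 0.18 in the fourth) and without sham rat 2 (blue).

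Whether a change differed between core and the tissue around it (peri) was tested in the core minus peri values of each rat, where no miRNA of 532 passed (0%) and 46 had an unadjusted p under 0.05 (8.65%). The smallest unadjusted p values among the 18 were those of miR-664-2-5p, at 1.97 in core and 0.72 in peri (a difference of 1.26), and of miR-6215, at 2.94 in core and -1.19 in peri. Both had an adjusted p of 0.425 by limma, which other miRNAs shared. miR-568 was -3.50 in core and -3.05 in peri, and miR-191b -2.17 and -1.97. None of the 18 was therefore shown to change in core alone.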

How the data were processed

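The authors extracted total RNA, added a poly(A) tail and a tag, hybridised it on microfluidic chips and deposited the median pixel intensity of each spot, with no background subtraction. A second deposited table, of intensities after background subtraction and LOWESS, served as an alternative. The paper names Trizol for extraction and the labels a miRNeasy kit. The files name no slide or scan. All columns of the table matched a sample by name.

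Spot intensities were corrected with normexp (offset 50), put on the log2 scale, normalized by cyclic loess over the 18 arrays with control spots at weight 0 and averaged over the 4 spots of a probe. Fold changes are thus relative to the other miRNAs. A miRNA had to be detected on 3 of the 18 arrays. For tMCAO against sham, lmFit and eBayes of limma 3.58.1 (R 4.3.3) were run, with the variance trend, over the 9 core arrays, which include 3 of remote limb postconditioning, with Benjamini-Hochberg adjustment at 0.05. The fit was tested on simulated data. Where no array of a group detected a miRNA, a fold is a bound against the lowest signal among detected miRNAs, or its own if higher. The number of arrays limits the precision.

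Named are all miRNAs past the threshold, the 5 largest rises and 5 largest falls among those detected on all 6 arrays without overlap, in each list those past the threshold and up to 4 others of smallest p, their opposite arms, and miR-210, miR-150 and miR-181b; further ones were chosen after their values were seen. The members, lists and tests were chosen with earlier results of these data known. Alternatives were other background corrections, normalizations, filters, detection limits and fits, a GC correction and leaving out each rat. The control weight, the loess over core arrays alone, renormalization without sham rat 2, and the tests of arm differences and of pairs 1 base apart were added after seeing the data. Replicate numbers mark different rats and were not used to pair the samples in the main fit. Plots were drawn with matplotlib in Python.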

Additional observations from a re-analysis of the deposited data

Results flagged for a closer look

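The 5S ribosomal RNA control probes, which no comparison above uses, separated the groups in part. Control rno-5S-b1 had a mean spot intensity of 35800 units on the tMCAO core arrays and 15400 on the sham core arrays, rno-5S-b2 26100 and 13900, and rno-5S-b5 34800 and 22600, and in each of them the lowest tMCAO array lay above the highest sham array. The other 3 of the 6 probes did not separate the groups. After normalization the median log2 difference over the 6 probes was 0.29, with a range from -0.24 to 0.86. rno-5S-b2 and rno-5S-b5 still separated the groups, but rno-5S-b1 did not. Its normalized value of 13.17 on tMCAO rat 2 lay below the sham values of 13.91, 13.82 and 13.76.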

How the results depend on the processing

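The number of miRNAs past the threshold (18) moved by over 1.5 times under several choices. It was 7 after plain background subtraction, 5 with the authors' normalized intensities, 11 with no filter, 40 with only the 2 groups in the fit, 50 with cyclic loess over the 6 compared arrays alone and 46 with all 18 arrays and the rat as a random block. It was 3 by the methods' t-test (137 before adjustment) and 4 when the other arrays were normalized again without sham rat 2. All 18 were among the 40, 50 and 46. Leaving out 1 rat gave between 0 and 13, and at an unadjusted p under 0.05 there were still 97 without sham rat 1 and 101 without sham rat 3. The other alternatives gave 12 to 18. With the replicate number as a block 3 passed. Same-numbered sham and tMCAO rats deviated from their group means with correlations of -0.14, -0.29 and -0.14. For rats of different numbers the correlations ran from -0.20 to 0.28. With 3 rats a group, whose deviations sum to 0, such values cannot decide whether the numbers mark a shared batch. The cause of these differences was not tested. A block by slide or scan was not run, since the files give neither.

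The 18 miRNAs kept their direction in all 406 of their values under the 23 alternatives, and 194 of these missed the threshold. Much of the shared direction was fixed in advance. Because their groups do not overlap, leaving out 1 rat from the same normalized values cannot reverse it. Other fits and filters of those values return the same difference. Of the 82 other tested miRNAs named by the rule or given with a fold change of their own, 15 changed sign in at least 1 setting, and none of them had passed. After plain background subtraction the log2 fold change was -0.22 for miR-128-3p, -0.34 for miR-132-3p, 0.28 for miR-149-5p, -0.10 for miR-181a-5p, 0.051 for miR-19b-3p, 0.42 for miR-29c-5p, -0.24 for miR-30d-5p and 0.18 for miR-451-5p. After quantile normalization it was 0.089 for let-7f-5p, 0.079 for let-7i-5p, 0.17 for miR-149-5p, 0.14 for miR-29c-5p and 0.14 for miR-451-5p. After median scaling it was 0.089 for let-7f-5p, 0.11 for let-7g-5p, 0.15 for let-7i-5p and 0.11 for miR-124-3p. With loess over the 6 arrays it was 0.022 for miR-29c-5p and -0.042 for miR-30d-5p, and over the 9 core arrays -0.066 for miR-30d-5p. With the GC trend removed it was 0.35 for let-7f-5p, 0.12 for let-7g-5p, 0.062 for let-7i-5p, -0.044 for miR-150-3p, -0.077 for miR-30d-5p and 0.22 for miR-451-5p, and with the authors' table -0.019 for miR-181c-3p. With control spots weighted it was 0.13 for let-7f-5p, 0.079 for let-7g-5p, 0.13 for let-7i-5p, 0.021 for miR-124-3p, 0.0085 for miR-149-5p, 0.053 for miR-29c-5p and 0.037 for miR-451-5p. After normalization without sham rat 2 it was 0.16 for let-7f-5p, 0.052 for let-7g-5p, 0.15 for let-7i-5p, -0.13 for miR-132-3p, -0.090 for miR-138-5p, -0.0905 for miR-181c-3p and 0.22 for miR-451-5p. Leaving out 1 rat gave -0.22 to 0.31 for let-7f-5p, -0.30 to 0.16 for let-7g-5p, -0.21 to 0.16 for let-7i-5p, -0.11 to 0.26 for miR-132-3p, -0.066 to 0.67 for miR-138-5p, -0.14 to 0.010 for miR-149-5p, -0.087 to 0.53 for miR-181c-3p, -0.22 to 0.17 for miR-29c-5p, -0.23 to 0.20 for miR-30d-5p and -0.21 to 0.23 for miR-451-5p.

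The difference between core and peri changes gave 0 calls in limma, with the rat as a random block and by the methods' t-test, with 46, 37 and 85 miRNAs at an unadjusted p under 0.05. The drop in miRNAs detected per array was -24 when the limit was set from the dimmest 25% of spots (two-sided exact permutation test, p = 0.4). Signal near the empty spots limits what can be said of miR-155-5p, miR-191b and miR-200b-5p, which 1 group did not show above background, and of miR-664-2-5p and miR-320-5p, which 1 group showed on 1 array.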
